A study of Homo sapiens with 6 samples.

Results

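The regions described here were accessible sites that stayed open at the ends of protein-coding genes throughout a phorbol ester time course in K562 cells, an established human line that derives from chronic myelogenous leukaemia. A site belonged to the class when it lay on chromosome 1 to 22 of GRCh38, overlapped a deposited peak by at least 1 base in all 6 libraries, and had a protein-coding gene starting or ending at most 1000 bases away. Of the 181135 sites in the deposited count table, 10856 met this rule (5.99%), and together they marked 11637 of the 19126 protein-coding autosomal genes. Of the 34586 autosomal sites with a peak in every library, the other 23730 lay away from gene ends.

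Accessibility was measured by ATAC-seq, in which adapters are inserted by a transposase wherever DNA is exposed, so that the count over a site rises with its openness. Wild-type K562 cells were exposed to 25 nM phorbol 12-myristate 13-acetate (PMA) for 0, 6 or 72 h, and each time was represented by 2 libraries made by the Omni-ATAC protocol. The 0 h libraries served as the untreated controls, all groups shared the same cell line and genotype, and the labels describe the treatment as megakaryocyte differentiation. Nothing in the labels says that the 2 libraries of a time came from separate cultures, so p-values measure only the spread between these libraries, which may be technical.

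As background, the start of an active gene is kept free of nucleosomes so that transcription factors and RNA polymerase II can bind, and housekeeping promoters are usually rich in CpG dinucleotides and open in every cell type. PMA mimics diacylglycerol and activates protein kinase C, which feeds the RAS, RAF, MEK and ERK cascade and induces AP-1 (JUN and FOS) and EGR transcription factors. In K562 cells the treatment is known to slow division, to lower erythroid genes and to raise genes of the megakaryocyte lineage.

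The values below were read against 250-base sequences upstream of gene starts, taken from RefSeq (GRCh38.p14) and written 5′ to 3′ on the strand of the gene. The HRH1, NIBAN2 and ODAPH promoters are shown because they were among the highest of the class at 72 h and carry the AP-1 letters TGANTCA, which are in capitals.
HRH1, chr3:11136988-11137237, plus strand: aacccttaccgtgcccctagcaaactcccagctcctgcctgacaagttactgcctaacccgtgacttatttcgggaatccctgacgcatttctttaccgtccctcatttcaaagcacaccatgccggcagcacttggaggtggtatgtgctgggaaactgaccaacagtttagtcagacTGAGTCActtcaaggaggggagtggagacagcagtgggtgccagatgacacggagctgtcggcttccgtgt
NIBAN2, chr9:127579032-127579281, minus strand: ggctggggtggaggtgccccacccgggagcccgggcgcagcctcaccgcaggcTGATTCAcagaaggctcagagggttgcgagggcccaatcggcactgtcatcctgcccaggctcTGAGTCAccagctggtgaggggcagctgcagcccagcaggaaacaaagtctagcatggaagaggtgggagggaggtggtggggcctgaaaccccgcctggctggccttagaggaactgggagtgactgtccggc
ODAPH, chr4:75555816-75556065, plus strand: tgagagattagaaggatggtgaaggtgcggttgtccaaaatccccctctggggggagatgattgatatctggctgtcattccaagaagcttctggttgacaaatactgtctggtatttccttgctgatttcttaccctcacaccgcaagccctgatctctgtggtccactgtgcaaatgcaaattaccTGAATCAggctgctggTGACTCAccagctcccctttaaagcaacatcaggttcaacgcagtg

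The KEL promoter is shown because KEL, which encodes a blood group glycoprotein of red cells, had a start site among the lowest at both times, with the GATA letters AGATAA in capitals. The ADARB1 promoter is shown because it had the lowest start site at 72 h, with the SP letters GGGCGG and the EGR letters GCGGGGGCG, or their reverse complements, in capitals. The last bases of the EGR letters are also the first bases of the SP letters, so the matches of the pair can overlap, as they do here.
KEL, chr7:142962364-142962613, minus strand: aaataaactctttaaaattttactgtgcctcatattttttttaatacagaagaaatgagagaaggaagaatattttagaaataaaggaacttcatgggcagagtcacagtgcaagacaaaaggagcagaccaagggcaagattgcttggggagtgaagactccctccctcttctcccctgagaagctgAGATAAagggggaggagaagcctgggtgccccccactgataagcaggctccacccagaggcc
ADARB1, chr21:45074328-45074577, plus strand: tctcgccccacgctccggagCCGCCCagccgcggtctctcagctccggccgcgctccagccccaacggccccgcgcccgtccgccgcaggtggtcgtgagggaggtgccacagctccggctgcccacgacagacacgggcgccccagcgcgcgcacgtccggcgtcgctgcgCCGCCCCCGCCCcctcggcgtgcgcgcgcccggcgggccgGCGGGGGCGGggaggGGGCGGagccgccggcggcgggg

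The HRH1 stretch held 1 AP-1 match, and the NIBAN2 and ODAPH stretches held 2 each. The 250 bases of ADARB1 were 83.6% G or C with 45 CpG dinucleotides, against 48.4% and 3 CpG for ODAPH. A match describes the letters only and is not a measured binding site.

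The libraries held 12258890 to 35548737 counts in the listed sites, and the median count of a class member ran from 303 in the shallower 6 h library to 831 in the deeper. The class took 38.6% and 40.5% of all counts at 0 h, 32.8% and 32.8% by 6 h, then 21.7% and 21.8% at 72 h. Both 72 h libraries therefore lay below both 6 h libraries, and these below both 0 h libraries. Constant sites away from gene ends took 35.2% and 34.3% of counts at 0 h and 28.9% and 29.2% at 72 h. Of the 8 K562 marker genes chosen for a check of the cell type, 7 had a site with a peak in all libraries. Of 5 lymphoid markers CD3E and CD79A had such a site, of 4 monocyte markers LYZ did, and of 4 megakaryocyte markers ITGB3 and GP9 did.

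Counts of nearly the whole class fell relative to the rest of the table. With TMM scaling over all tested sites, the median log2 change of the members was −0.42 at 6 h and −1.33 at 72 h, while the median of all tested sites was 0.05 and 0.29 and that of constant sites away from gene ends −0.24 and −0.67. Of the 10855 members that passed the filter on low counts (1 did not), 89.1% lay below 0 at 6 h and 96.3% at 72 h. With edgeR's quasi-likelihood test and Benjamini-Hochberg adjustment over all sites, 5854 members (53.9%) were called at 6 h, where 40.1% of all tested sites were. Of these members 5495 were lower (50.6% of members, 16.8% of all sites). At 72 h 10168 were called (93.7% of members, 67.4% of all sites), and 9983 of them were lower (92.0% and 29.2%). Only 359 and 185 members were called higher (3.31% and 1.7%), against 23.4% and 38.2% of all sites.

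The size of this fall followed the scaling and its direction did not. At 72 h the class median was −1.52 with size factors of the median-ratio kind (RLE), −0.83 with total counts and −0.32 with loess offsets over all sites, and at 6 h −0.57, −0.29 and −0.20 in the same order. Since counts in a library are shares of a total, a lower share of the class and a higher share of the other sites cannot be told apart. In such bulk samples, fewer open cells and less signal per cell cannot be told apart either. The 2 replicate pairs gave −0.36 and −0.45 at 6 h and −1.26 and −1.32 at 72 h under TMM.

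To ask which genes resisted or exceeded the common fall, library sizes were reset so that the median log2 change of the class was 0 at each time. All changes from here on are on this class scale unless stated otherwise, and levels are CPM (counts scaled to library size) on the class-scaled library sizes (class-scaled CPM). A value of 1 means that a site rose 2-fold relative to the median member. On this scale 87.4% of members lay within 0.5 of the median at 6 h and 79.2% at 72 h, so most members moved together. The spread was skewed upwards: at 72 h the 95th percentile was 1.17 and the 5th percentile −0.50, and 697 members lay more than 1 above the median but 48 more than 1 below. At 6 h these counts were 311 and 63.

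At 6 h, 1664 members (15.3%) were called, where 39.5% of all tested sites were. Of them 1102 were higher than the class median (10.2% of members, 32.8% of all sites) and the rest lower (5.18% and 6.7%). At 72 h, 3562 were called (32.8% of members, 72.0% of all sites). The split was 2051 higher (18.9%) and 1511 lower (13.9%), with 66.6% and 5.32% of all sites. With TMM scaling the split was 185 higher to 9983 lower. From 6 h to 72 h, 2129 members were called (19.6%, against 55.8% of all sites). Of these 1334 rose (12.3%) and 795 fell (7.32%) against the class, with 53.8% and 2.04% of all sites. Leaving out the second 6 h library lowered the 6 h calls to 1099 and those between the treated times to 1386, and leaving out the first or second 72 h library lowered the latter to 1154 or 1169. Because genes were ranked by these same counts, the calls describe the class and support nothing further. Of the members, 858 were called higher at both times (7.9%, against 31.9% of all tested sites) and 291 lower at both (2.68% against 2.78%). At 72 h only, 1173 were called higher (10.8% against 33.9%) and 1218 lower (11.2% against 2.54%).

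**Figure D1:**
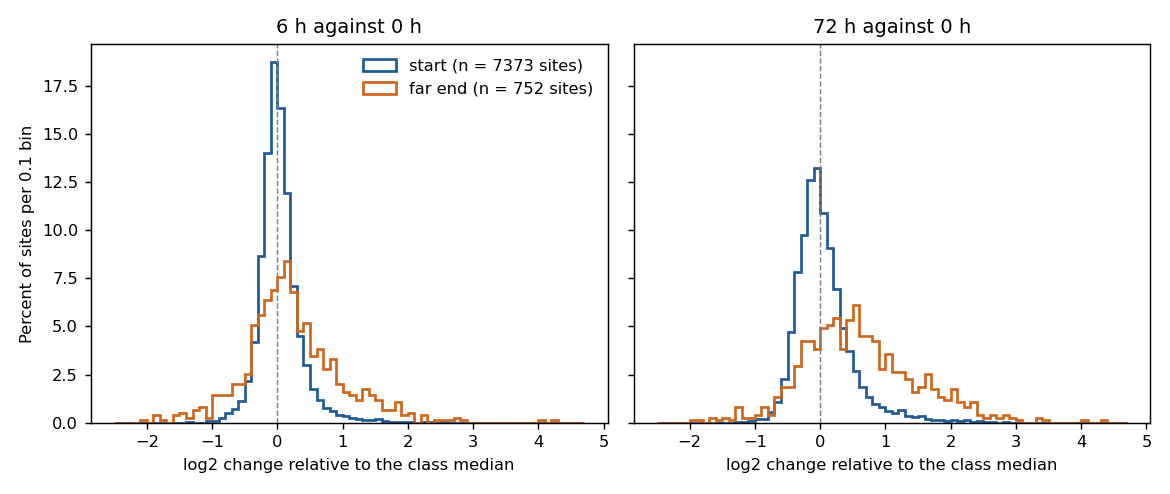
Distribution of the log2 change relative to the class median at 6 h (left) and 72 h (right), as the percent of sites in bins of 0.1, for 7373 sites at gene starts (blue) and 752 sites at the far ends of genes (orange). The starts form a narrow peak around 0, and the far ends are wider and shifted to the right, with a median of 0.51 at 72 h.

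The rule reads no strand, so the end of each gene was identified from the strand in the RefSeq promoter table. By this, 7373 members lay at starts only, 752 at far ends (the 3′ ends) only, 554 at both kinds and 379 at a known and an unknown end, and for 1797 the strand was not given. Far ends resisted the common fall more often than starts. Their median was 0.14 at 6 h and 0.51 at 72 h, against −0.003 and −0.02 for starts, and 28.9% of far ends lay more than 1 above the median at 72 h against 4.01% of starts. They also held more of the low extremes, with 2.39% more than 1 below against 0.20%. The higher median was not particular to far ends. On the same scale, constant sites away from gene ends had medians of 0.19 at 6 h and 0.67 at 72 h. At 72 h 35.8% of those sites lay more than 1 above and 1.19% more than 1 below.

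Far-end sites had lower levels, with a median of 10.5 class-scaled CPM against 25.6 for starts. In the lowest of 5 equal groups of members by level, the median at 72 h was 0.59 for 412 far ends and 0.26 for 1124 starts. In the middle group it was 0.38 for 85 far ends and 0.004 for 1561 starts, and in the highest group −0.07 for 38 far ends and −0.18 for 1622 starts. With offsets that compare a site with members of like level, the far-end median fell to 0.27 and that of starts was −0.02. Summed over the class, far ends held 4.29 and 4.39 counts for every 100 at starts at 0 h, 4.81 and 5.11 by 6 h, then 5.98 and 6.18 at 72 h, and the libraries of the 3 times did not overlap. Constant sites away from gene ends rose likewise. For each count in the class they held 0.91 and 0.85 at 0 h, 1.04 and 1.02 by 6 h, then 1.33 and 1.34 at 72 h.

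In 474 genes both ends had a member site. The far end lay above the start in 276 of them at 6 h and in 325 at 72 h, with a median difference of 0.17 and 0.49. The spread over these genes was wider at far ends (SD 0.88 at 72 h) than at starts (SD 0.47). The genes given below with values at both ends were chosen after their values were seen.

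KLF6, a zinc finger factor induced by phorbol esters, showed the largest rise of any far end at 6 h. Its far-end site (chromosome 10, 3775149 to 3776680) held 4.50 and 4.73 class-scaled CPM at 0 h, 89.7 and 85.7 by 6 h, then 14.2 and 15.6 at 72 h, a log2 change of 4.24 (SE 0.16) and then 1.69 (SE 0.16). Its start site held 48.0 and 42.2 at 0 h, 66.4 and 61.9 by 6 h, then 33.7 and 43.8 at 72 h, so the far end exceeded the start only at 6 h. EGR1, an immediate early zinc finger factor, had 44.4 and 24.1 at its far end at 0 h, 165.8 and 157.7 by 6 h, then 38.1 and 50.6 at 72 h. Its start went from 157.1 and 143.3 to 220.8 and 204.2 and back to 129.7 and 151.0. At SLC38A2, an amino acid transporter, the far end changed by 2.29 at 6 h and 1.13 at 72 h. At the far end of VMP1, an autophagy protein of the endoplasmic reticulum, the 0 h libraries stood far apart (22.8 and 61.8), both 6 h libraries were above them (178.3 and 226.8), and the 72 h libraries overlapped them (40.8 and 69.4). The far end of VIM, the intermediate filament vimentin, was still above 0 h at 72 h: 6.66 and 6.60 at 0 h, 33.2 and 41.4 by 6 h, then 24.9 and 28.7 at 72 h. Its log2 change from 6 h to 72 h was −0.48. The start of VIM changed by 0.82 at 6 h and 0.40 at 72 h.

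Other far ends fell beyond the class. The 12 lowest at 72 h included those of NCL, EEF1A1, RPL3, RPS19 and RAN, beside SCLY, TRAF7, ACP4 and TMT1A. The far end of NCL, the nucleolar protein nucleolin, held 18.5 and 33.8 class-scaled CPM at 0 h, 8.75 and 12.5 by 6 h, then 8.24 and 6.48 at 72 h, a log2 change of −1.28 (SE 0.24) and −1.84 (SE 0.25). Its start changed by −0.09 and −0.31. At the far end of EEF1A1, which encodes translation elongation factor 1 alpha, values were 63.8 and 115.4 at 0 h, 77.7 and 96.4 by 6 h, then 28.8 and 34.0 at 72 h, so only the 72 h libraries stood apart. The far ends of RPL3 (−1.43 at 72 h) and RPS19 (−1.24), both ribosomal proteins, and of RAN (−1.25), the nuclear transport GTPase, were also among the lowest, while their starts changed by 0.03, −0.20 and −0.26.

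**Figure D2:**
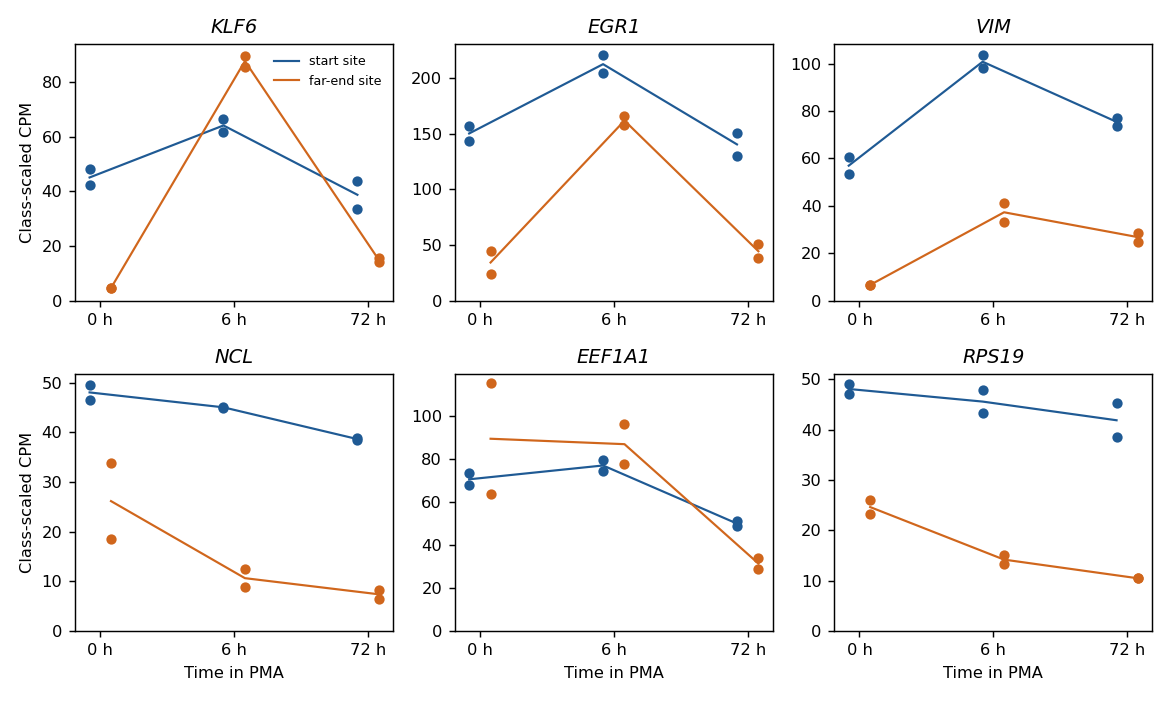
Class-scaled CPM (vertical axis, separate scale in each panel) at 0, 6 and 72 h of PMA for 6 genes with a member site at the start (blue) and at the far end (orange), where points are libraries and lines join the means of 2. In KLF6, EGR1 and VIM the far end rose at 6 h, and in NCL, EEF1A1 and RPS19 it was lowest at 72 h while the start changed less.

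For the ranking, each gene was represented by its member site with the highest mean level, a mean of at least 5 CPM was required, and both treated libraries had to lie on the same side of both 0 h libraries. This left 3071 sites above and 3192 below at 72 h, of 9552 that could be ranked. Over all tested sites, 76.3% lay apart on the higher side and 10.0% on the lower, and over all members 34.6% and 31.4%. The 12 highest and 12 lowest are described by their values, without a test, because they were chosen by them. For KRTAP5-4, DUSP5, OSM, HBA2, TFR2, UBASH3A, CCND2, CGAS and SPN the strand was not given, so start or far end is unknown. The CA11 and DBP site lay at a known and an unknown end. The sites of IGFN1, ODAPH and SYCN were starts. Those of FAM153A, C1orf226, CNTNAP1 with EZH1 and LOC124903856 were far ends.

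The highest member at 72 h was the far end of MDGA1, a glycolipid-anchored cell surface protein, at chromosome 6, 37630052 to 37630919. It held 2.97 and 3.02 class-scaled CPM at 0 h, 44.8 and 56.9 by 6 h, then 59.2 and 62.5 at 72 h. The log2 change was 4.09 (SE 0.17) at 6 h and 4.34 (SE 0.18) at 72 h, and with TMM scaling it was still 3.01 at 72 h, so the site was above its 0 h level on that scale too. The start of MDGA1 was also a member and changed by 0.82 and 0.79. The far end of NFILZ, a basic leucine zipper gene, rose mainly after 6 h, from 3.06 and 4.39 through 11.8 and 19.7 to 57.2 and 65.3.

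The highest start site was that of HRH1, the histamine H1 receptor, whose AP-1 letters are shown above (site at chromosome 3, 11136618 to 11137913). Its libraries held 3.91 and 5.76 class-scaled CPM at 0 h, 31.3 and 45.7 by 6 h, then 67.9 and 84.3 at 72 h, so the 3 times did not overlap. The start of NIBAN2 went from 2.43 and 4.14 through 20.8 and 27.5 to 37.3 and 49.7. IGFN1, an immunoglobulin and fibronectin domain protein known from muscle, was already at its highest by 6 h, with 2.83 and 2.71 at 0 h, 37.5 and 37.9 by 6 h, then 33.3 and 32.2 at 72 h. ODAPH, a phosphoprotein of tooth enamel, rose late, from 2.74 and 2.58 through 7.22 and 7.69 to 20.2 and 24.4.

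DUSP5, a nuclear phosphatase that inactivates ERK, was the highest of the signalling genes (site at chromosome 10, 110511915 to 110513343, 382 bases from an end of the gene). It held 3.87 and 4.11 class-scaled CPM at 0 h, 40.4 and 43.5 by 6 h, then 32.8 and 43.4 at 72 h, a log2 change of 3.39 (SE 0.18) and 3.25 (SE 0.18). The 6 h and 72 h libraries of DUSP5 overlapped. The others among the 12 were KRTAP5-4, a hair keratin-associated gene of a family with near-identical copies (3.51), the far ends of GRHL3, an epithelial transcription factor (3.41), of TMCO4 (3.36), of LOC124902361 (3.36) and of AGT, angiotensinogen (3.02). All 12 started low, with 1.31 to 5.76 class-scaled CPM in the 0 h libraries, against a class median of 23.6 over all libraries.

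At 6 h the 12 highest shared 8 members with those at 72 h. The other 4 were OSM, a cytokine of the interleukin-6 family (2.99 at 6 h, 2.73 at 72 h), the far end of NIM1K, a kinase (2.73, 2.75), and starts of LAMC1, a laminin subunit (2.57, 2.27), and GPR183, an oxysterol receptor (2.55, 2.50). The LAMC1 site lay 323 bases from the gene end, and another LAMC1 member site, at the promoter, changed by 1.67 and 1.37. OSM held 1.84 and 2.43 class-scaled CPM at 0 h, 16.8 and 17.6 by 6 h, then 14.7 and 14.1 at 72 h. All 4 stayed high at 72 h and lost 0.30 at most between the treated times.

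The lowest member at 72 h lay at the shared far end of the H2BK1 and ABCF2-H2BK1 gene models (an H2B histone variant and a read-through), at chromosome 7, 151206857 to 151207540. It held 16.5 and 22.8 class-scaled CPM at 0 h, 4.45 and 6.24 by 6 h, then 4.74 and 5.77 at 72 h, a log2 change of −1.85 (SE 0.23) and −1.90 (SE 0.23). On this scale the 6 h and 72 h libraries overlapped. With TMM scaling the change was −2.27 at 6 h and −3.24 at 72 h.

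Some genes of red cell function were among the lowest, while others, such as RHD, rose, as given with the erythroid list below. At HBA2, an alpha-globin gene, values were 16.2 and 17.1 at 0 h, 12.7 and 8.20 by 6 h, then 5.80 and 3.48 at 72 h, a log2 change of −0.70 (SE 0.24) and then −1.85 (SE 0.25). HBA2 has the near-identical neighbour HBA1, between which the counting could have split reads, so its level is uncertain. TFR2, the transferrin receptor of iron sensing, was low at both treated times on the class scale: 17.05 and 22.3 at 0 h, 5.07 and 5.28 by 6 h, then 5.89 and 5.53 at 72 h. The start of KEL, whose sequence stands above, fell by 1.19 at 6 h and 1.21 at 72 h.

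UBASH3A, a regulator of lymphocyte receptor signalling, went from 13.9 and 18.1 through 5.45 and 5.28 to 4.70 and 4.39. The facing far ends of STAT3 and STAT5A, which encode signal transducers of cytokine receptors, shared a strong site (chromosome 17, 42311439 to 42313331) that held 87.1 and 105.4 at 0 h, 34.2 and 37.0 by 6 h, then 35.1 and 34.4 at 72 h. The start of ADARB1, an RNA editing enzyme, fell late, from 75.5 and 57.4 through 60.4 and 40.0 to 26.4 and 22.3, and its 6 h libraries overlapped those at 0 h. The site of CCND2, a D-type cyclin, lay 720 bases from an end of the gene and changed by −1.02 at 6 h and −1.40 at 72 h. Other low members at 72 h were the far ends of EEF1A1 and RPL3 described above, the CA11 and DBP site (−1.44) and the shared start of EPHB4 and SLC12A9 (−1.30).

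**Figure D3:**
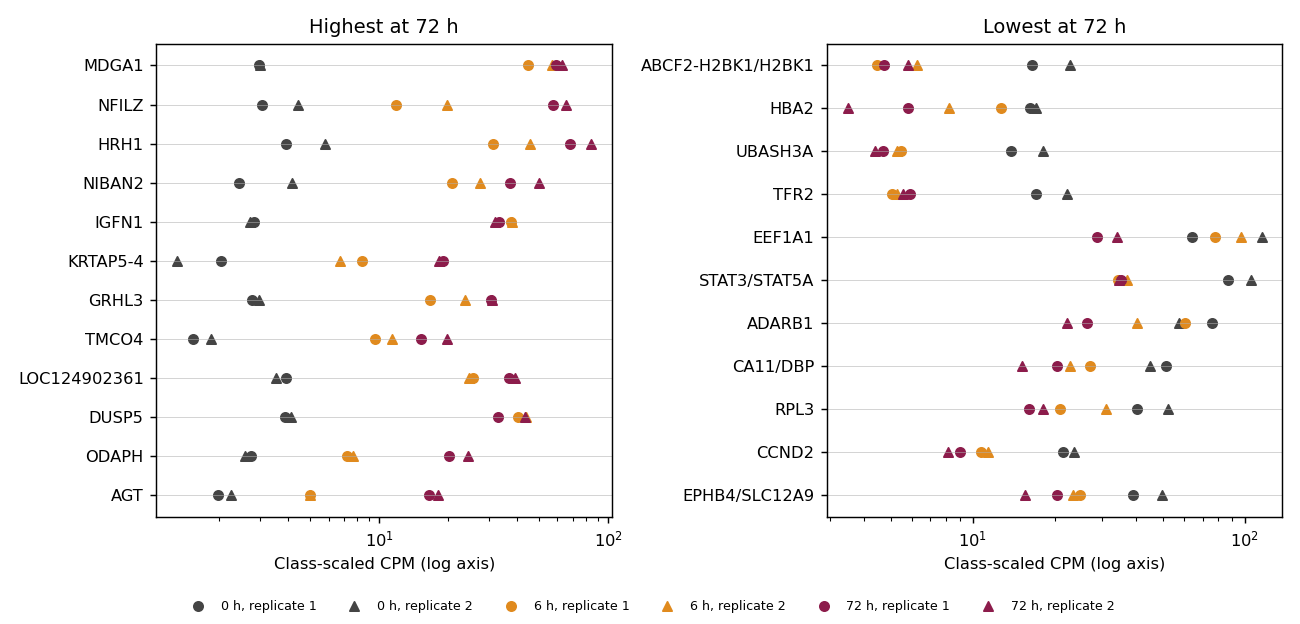
Class-scaled CPM (log axis) in each of the 6 libraries for the 12 highest (left) and 11 of the 12 lowest (right) members at 72 h, where colours mark the time and symbols the replicate. At each site shown both 72 h libraries lie beyond both 0 h libraries, and the highest members start from 1.31 to 5.76 CPM.

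Of the members called lower at 6 h, 291 were also lower at 72 h (2.68% of members, 2.78% of all tested sites). A further 251 were not called then (2.31% and 3.14%) and 20 were higher (0.184% and 0.786%). Most of the 12 lowest at 6 h had risen against the class by 72 h, to different degrees. SYCN, which encodes a zymogen granule protein, went from 12.7 and 9.71 class-scaled CPM to 4.30 and 2.84 and back to 13.8 and 12.6. The far end of MICAL3, a cytoskeletal oxidoreductase, changed by −1.59 and then −0.13, and at both sites the 72 h libraries overlapped those at 0 h again. CGAS, the cytosolic DNA sensor, held 19.3 and 17.1, then 4.30 and 7.35, then 13.1 and 15.6, and FAM153A changed by −1.87 and −0.37. Both still lay below their 0 h libraries at 72 h but were not called. The sites of C1orf226 (−1.84, −0.48), CNTNAP1 with EZH1 (−1.52, −0.53), SPN, the sialophorin of leukocytes (−1.57, −0.76) and LOC124903856 (−1.58, −0.87) were still called lower at 72 h. Of the 12 lowest at 6 h, TFR2, the H2BK1 site and UBASH3A were also among the 12 lowest at 72 h.

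The replicates were also compared by an order made from the replicate 1 libraries alone, although membership of the class had used all 6. Since the 2 libraries of a time may be technical, this describes how alike the libraries were and tests no effect of PMA. Of the top 5% in that order, all 543 lay above the median in the replicate 2 libraries at 72 h, with medians of 1.496 and 1.53, and 531 of 543 did so at 6 h. Of the bottom 5%, 518 lay below in replicate 2 at 72 h and 473 at 6 h. The bottom medians shrank from −0.63 to −0.48 at 72 h and from −0.67 to −0.42 at 6 h.

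Gene lists were read by the representative site of each gene, beside the same counts over all 11636 member genes that were tested. Of all these, 1060 (9.11%) were called higher and 529 (4.55%) lower at 6 h, and 1903 (16.4%) higher and 1742 (15.0%) lower at 72 h, with medians of −0.005 and −0.03. The lists were chosen with earlier results of these data known and carry no test of their own.

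Immediate early genes, whose transcription starts within minutes of a signal, were often higher at 6 h. Of 42 genes with a member, 22 (52.4%) were called higher at 6 h, with a median of 0.36. At 72 h 14 were higher (33.3%) and 6 lower (14.3%) with a median of 0.10. Between the treated times 11 fell (26.2%) and 4 rose (9.52%). The start of EGR1, described above, gave 0.50 (SE 0.11) at 6 h and −0.10 at 72 h. FOS, an AP-1 subunit, gave 0.90 and 0.42, PHLDA1 gave 1.38 and 1.098, and KLF2, a zinc finger factor of quiescence, 1.13 and 0.86. EGR4 and NR4A1, an orphan nuclear receptor, went on rising: EGR4 held 2.97 and 3.33 class-scaled CPM at 0 h, 10.1 and 7.69 by 6 h, then 16.2 and 13.5 at 72 h, and NR4A1 went from 0.68 to 2.04 in log2 change. JUND, an AP-1 subunit, and KLF11 were not called at 6 h (−0.03 and −0.28) and were lower at 72 h (−0.63 and −0.86), and SRF, the serum response factor, gave −0.39 at 72 h. CSRNP1 was higher at both times (0.75 and 0.55).

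Of 44 genes of protein kinase C and ERK signalling, 4 were called higher (9.09%) and 4 lower (9.09%) at 6 h, and 7 higher (15.9%) and 5 lower (11.4%) at 72 h. The ERK phosphatase DUSP2 was higher at both times (1.44, 1.99), beside DUSP5. DUSP6, the cytoplasmic ERK phosphatase, was lower at its far end at 6 h (−0.82) and near the median at 72 h (0.004). DUSP10, ETV5 and the shared start of SHC1 and CKS1B gave −0.15, −0.25 and −0.22 at 72 h, none of them called. MAPK3, which encodes ERK1, shared its site with a neighbouring gene and was higher (1.08, 1.75). SOS1, an exchange factor that activates RAS, was lower at both times (−0.42 and −0.42), and DUSP16 was lower at 72 h (−0.66).

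Of 45 erythroid genes with a member, 33 lay below the median at 6 h and 34 at 72 h. The list's medians were −0.15 and −0.18. At 6 h 10 genes were called lower (22.2%) and 2 higher (4.44%). At 72 h the counts were 14 lower (31.1%) and 3 higher (6.67%). Besides HBA2, the lower genes at 72 h included the fetal globins HBG1 (−0.62) and HBG2 (−0.63), near-identical copies of each other, SPTB, the beta spectrin of the red cell membrane (−0.69), TRIM58 (−0.69), MYB (−0.59), HEMGN (−0.57) and the far end of KLF1, the erythroid Krüppel-like factor (−0.62). LYL1 was lower at 6 h (−0.96) and not called at 72 h (−0.19). RHD, which encodes the RhD blood group antigen, went the other way at its far end (2.34 and 2.71 class-scaled CPM at 0 h, 8.14 and 10.2 at 6 h, 11.6 and 12.05 at 72 h), as did LMO2 (0.62, 0.97) and GYPC (0.55 at 72 h). Of the enzymes of haem synthesis with strong sites, UROD gave −0.07 at 72 h, which was not called, and PPOX was lower (−0.43), each at a site shared with a neighbouring gene. SLC25A38, a mitochondrial glycine carrier, gave −0.15.

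Megakaryocyte and platelet genes moved mainly at 72 h. Of 48 genes on the list only 24 had a member. Of these 5 were called higher (20.8%) and 1 lower (4.17%) at 6 h. At 72 h 11 were higher (45.8%) and 1 lower (4.17%). The medians were 0.08 and 0.21. The start of ITGA2, the collagen-binding integrin alpha 2, held 3.46 and 2.93 class-scaled CPM at 0 h, 4.99 and 3.60 by 6 h, then 14.6 and 11.2 at 72 h, a log2 change of 2.02 (SE 0.25) at 72 h. GP1BA, the alpha chain of the von Willebrand factor receptor (1.48), P2RX1, a platelet ATP receptor (1.199), RASGRP2, an activator of the RAP1 GTPase (1.22), ITGB3, integrin beta 3 (0.76) and GP9 (0.60) were also higher at 72 h. GNAQ was the lowest (−0.44). The genes with the strongest sites stayed near the median at 72 h: GP1BB with SEPTIN5 (−0.06), ZYX with FAM131B (0.05), VCL (−0.10) and STIM1 (−0.27), none of them called.

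Genes of the NF-kB and interferon pathways (34 with a member) had 9 called higher (26.5%) and 1 lower (2.94%) at 72 h. Over all member genes these shares were 16.4% and 15.0%. HLA-B gave 1.39, CXCL8, a neutrophil chemokine, 1.84 at 6 h and 1.02 at 72 h, and BIRC3, a caspase inhibitor, 0.67 and 0.82. STAT3 was the lowest, at the far-end site it shares with STAT5A. Of 44 genes of the cytoskeleton and adhesion, 11 were higher (25.0%) and 7 lower (15.9%) at 72 h. The calcium-binding S100A6 (1.85) and S100A10 (1.61), the protease CAPN2 (1.39), the kinase SRC (1.30) and the far end of ITGB5 (2.32) rose, while ACTN1 (−0.57), MYH10 (−0.51) and RHOA (−0.40) fell. Among 44 lysosome and autophagy genes, 9 were higher (20.5%) and 5 lower (11.4%) at 72 h. GUSB, a lysosomal glucuronidase, was the highest with 8.64 and 9.62 class-scaled CPM at 0 h, 18.2 and 23.3 by 6 h, then 44.5 and 56.1 at 72 h.

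Growth and housekeeping lists lay slightly below the median at 72 h. Over all member genes, 16.4% were called higher and 15.0% lower then. For 75 cytosolic ribosomal protein genes the medians were −0.03 and −0.15, with 16 called lower (21.3%) and 1 higher (1.33%) at 72 h. RPL3 was the lowest, at its far end, followed by RPS18 (−0.79), RPL26 (−0.72) and RPL4 (−0.69), and RPL11 was the gene called higher (0.45). Of 59 genes of DNA replication and mitosis, 13 were lower and 2 higher at 72 h (median −0.11). The lowest was the far-end site shared by RFC4 and EIF4A2 (−1.09), and AURKB, a mitotic kinase, was the highest (0.53). Of 49 splicing genes, 12 were lower (24.5%) and 3 higher (6.12%) (median −0.17), with the shared start of HNRNPA2B1 and CBX3 the lowest (−0.80). Of 33 genes of chromatin looping and remodelling, 11 were lower (33.3%) and 1 was higher (3.03%), with a median of −0.20. The higher gene was KDM5B (0.78). Of 24 genes of cell cycle control (inhibitors, pocket proteins, D cyclins and their partners), 8 were lower (33.3%), led by the cyclin CCND2. There 2 were higher (8.33%), with RBL2, a pocket protein, the highest (0.56).

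The proteasome (37 genes), oxidative phosphorylation (62), the mitochondrial ribosome (72), glycolysis (21) and tRNA synthetases (23) had medians from −0.08 to 0.03 at 72 h. Of the proteasome genes 5 were called higher (13.5%) and 1 lower (2.70%), where 16.4% and 15.0% of all member genes were. PSMD7 was the highest proteasome gene (0.60). Of the oxidative phosphorylation genes 4 were higher (6.45%) and 8 lower (12.9%). Of the mitochondrial ribosome genes 6 were higher (8.33%) and 4 lower (5.56%), with MRPL35 the highest at a site shared with REEP1 (1.12). Cholesterol synthesis genes (24) had a median of −0.20 with 5 lower (20.8%), led by LSS (−0.65), and 1 higher (4.17%), SC5D (0.35). Of 36 chaperone and endoplasmic reticulum stress genes, 10 were lower (27.8%) and 2 higher (5.56%), with HERPUD1 at 0.36 and the site of DDIT3 at −0.47. Of 38 ribosome biogenesis genes, 4 were lower (10.5%), led by PPAN at a site shared with P2RY11 (−1.19). There 2 were higher (5.26%), led by PES1 at a site shared with TCN2 (1.25).

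The 377 genes named ZNF with a number, mostly of the zinc finger repressor family, had a median of −0.11 at 6 h and 0.12 at 72 h. At 6 h 34 were called lower (9.02%) and 19 higher (5.04%). At 72 h 65 were higher (17.2%) and 22 lower (5.84%). Between the treated times 122 rose (32.4%) and 9 fell (2.39%), where 10.5% of all member genes rose and 7.87% fell. Many of these genes are near copies of each other in clusters, so neighbouring sites are not independent. ZNF710 was the highest at 72 h (2.42), and ZNF846 the lowest (−0.61).

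Markers of other blood cells were few among the members but not absent. Of 14 lymphoid markers 4 had a member, CD3D, CD3E, CD79A and CD79B, and all 4 were called higher at 72 h (0.73 to 1.76). Of 21 monocyte and macrophage markers 7 had a member, of which ITGAX, integrin alpha X, was the highest (2.73), and SPI1, the PU.1 factor, fell (−0.38). At CD3E the libraries held 8.41 and 12.5 class-scaled CPM at 0 h, 8.75 and 8.34 by 6 h, then 15.9 and 19.0 at 72 h. The part of other cells in these values was not tested.

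**Figure D4:**
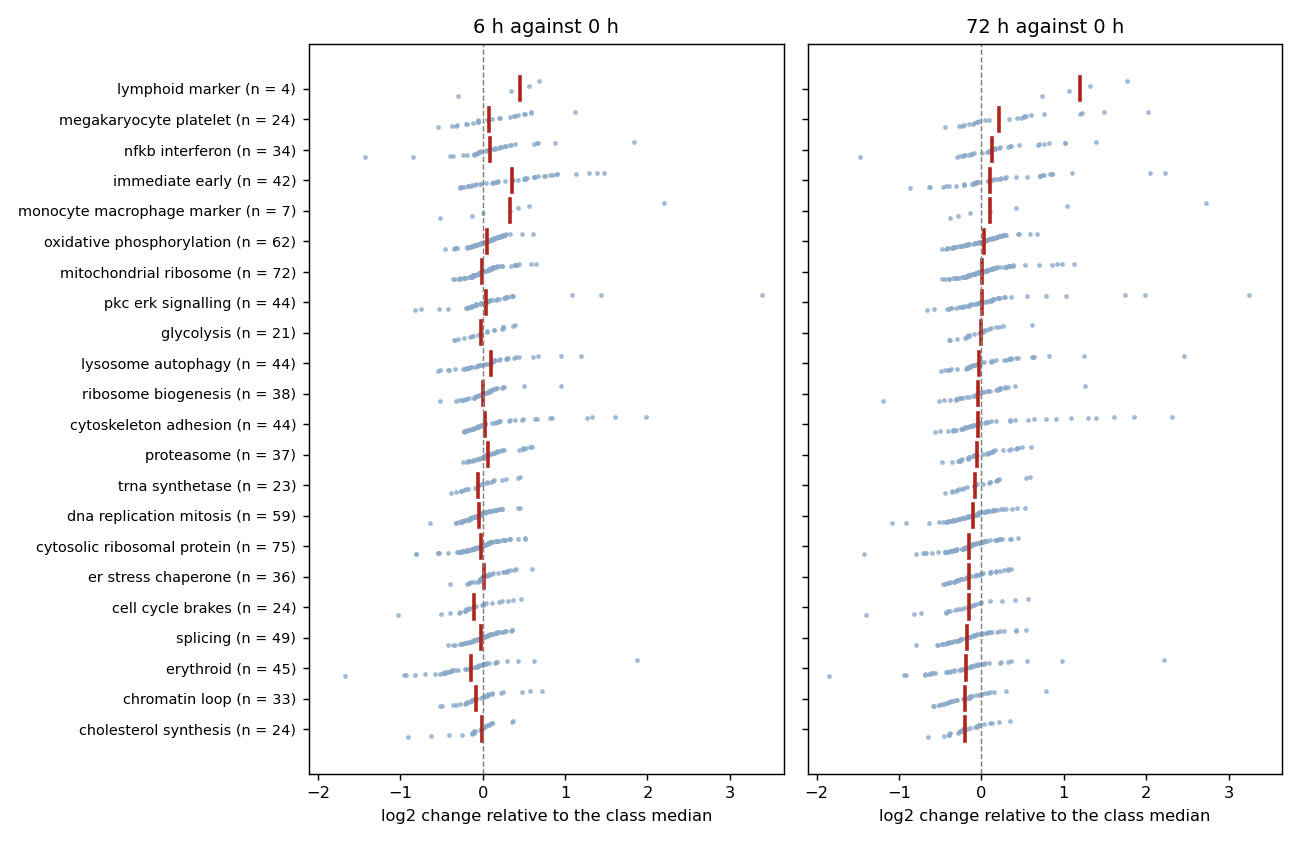
Log2 change relative to the class median at 6 h (left) and 72 h (right) for the member genes of 22 lists, ordered by their median at 72 h, where points are genes, red bars are list medians and n is the number of genes with a member. The immediate early median is 0.36 at 6 h and 0.10 at 72 h, and the erythroid median is below 0 at both times.

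Across the class, the change at 72 h went down with the level of a site. The median was 0.32 in the lowest of 5 equal groups by mean CPM (2.18 to 11.5), 0.11, 0.01 and −0.08 in the next 3, and −0.18 in the highest (41.4 to 218.2). At 6 h the same medians ran from 0.06 to −0.02. Over 10855 sites, which share their libraries and their depth, Spearman's rho was −0.41 and Pearson's r −0.37 at 72 h, and −0.07 for both at 6 h. Part of the list medians moved with this: against sites of like level, the 72 h median was −0.23 for erythroid genes, 0.26 for megakaryocyte genes, −0.14 for ribosomal protein genes and −0.13 for splicing genes, and −0.06 for cholesterol synthesis. The sign of the 72 h median changed for the chaperone list (0.02), ribosome biogenesis (0.03), the cytoskeleton list (0.07) and oxidative phosphorylation (−0.02), among others. For zinc finger genes it was −0.12 at 6 h and 0.09 at 72 h.

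Of 1029 starts shared by 2 or more genes, 1.36% lay more than 1 above the median at 72 h, against 4.45% of 6344 starts of a single gene. Of the shared starts 9.91% were called higher and 15.9% lower at 72 h, and of the single starts 16.2% and 13.8%. The shared starts had higher levels, with a median of 31.9 against 24.6 CPM. Sites that overlapped a gene end had a median of −0.03 at 72 h, those 1 to 500 bases away 0.21, and those farther away 0.35. Their median levels were 25.6, 12.5 and 12.4 CPM in the same order. Distance was not separated from level or from the kind of gene end.

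At the borders of the rule, medians were higher outside than inside. The 140 members in the last 100 bases inside the distance limit had a median of 0.37 at 72 h, and the 129 constant sites in the 100 bases just outside had 0.54. Against the class median of 0, gene-end sites with a peak in 5 of 6 libraries (892) had a median of 0.59, and those with a peak in 4 (1179 tested) 1.55. The deposited lists held 61873 and 69152 peaks at 0 h but 138914 and 142305 at 72 h. Peaks and counts come from the same libraries, so sorting sites by missing peaks partly sets their change. These medians describe the rule and are not a separate result.

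The promoter sequence differed along the ranking. A RefSeq window of 300 bases, from 250 before to 50 after a gene start, was matched to 7569 members. The median GC content of the windows was 67.0%, against 62.3% in all 22199 windows of the table. It was 64.7% in the top 5% of members at 72 h and 72.7% in the bottom 5% (378 windows each). The median change at 72 h went from 0.02 in the group of windows with the lowest GC content, of 5 equal groups, to −0.10 in the highest. Over the 7569 windows, which share libraries and base composition with their neighbours, Spearman's rho of GC content and change was −0.15 at 72 h and −0.04 at 6 h.

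**Figure D5:**
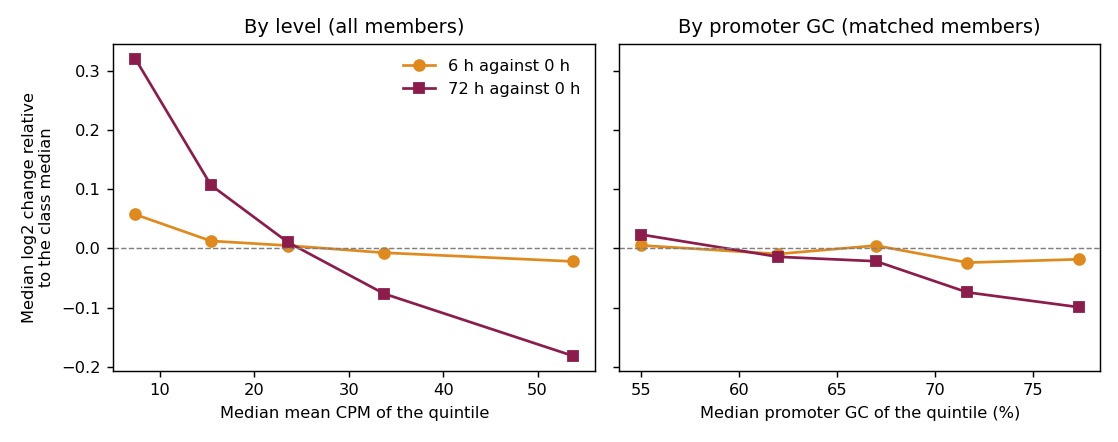
Median log2 change relative to the class median (vertical axis) at 6 h (orange circles) and 72 h (purple squares) in 5 equal groups of the members by mean CPM (left, 10855 sites) and by GC content of the promoter window (right, 7569 windows). At 72 h the median runs from 0.32 to −0.18 with level and from 0.02 to −0.10 with GC content.

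The AP-1 letters TGANTCA, read on both strands, were in 4.15% of the matched member windows and in 6.15% of all windows. They were in 15.6% of windows of the top 5% at 6 h and 12.7% at 72 h, as in HRH1, NIBAN2 and ODAPH, and in 2.38% and 1.32% of the bottom 5%. The 314 members with these letters had medians of 0.12 at 6 h and 0.15 at 72 h, and the 7255 without them −0.01 and −0.05. The EGR letters GCGGGGGCG, as in ADARB1, were in 9.35% of member windows and 6.49% of all windows, and in 19.6% of the bottom 5% at 72 h but 8.73% of the top. Windows with the EGR letters had a median GC content of 74.7% against 66.0% without. The SP letters GGGCGG were in 77.1% of member windows and 56.3% of all windows, with 86.5% in the bottom 5% at 72 h and 65.6% in the top. The GATA letters AGATAA, as in KEL, were in 4.03% of member windows and 7.91% of all, with 6.88% in the top 5% and 2.65% in the bottom at 72 h, and 6.08% and 7.14% at 6 h. The ETS letters CCGGAAG were in 21.4% of member windows and 12.8% of all. At 72 h they were in 9.26% of the top 5% and 14.8% of the bottom. Both were below the 24.6% in the 5% of windows nearest to no change. The NFY letters CCAAT were in 37.3% and 34.7%, with 26.7% in the top 5% and 42.1% in the bottom at 72 h. Median GC content with and without the letters was 69.0% and 59.7% for SP, 62.3% and 67.0% for AP-1, and 59.0% and 67.0% for GATA. For ETS it was 65.0% and 67.7%, and for NFY 64.7% and 68.3%. Letters were not separated from GC content. The shares describe letters in windows chosen by their change and were not tested.

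The authors' deposited table puts 10310 of the 10856 members (94.97%) in its class static, against 79.2% of all its sites. Of the others, the authors' deposited table puts 304 in upLate, 136 in downEarly, 74 in upEarly and 32 in downLate. The median log2 fold change of the members in the authors' deposited table was −0.55 at 6 h and −1.49 at 72 h.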

How the data were processed

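The deposited table held the authors' raw read counts per merged site in 6 ATAC-seq libraries, with the authors' log2 fold changes, adjusted p-values and site classes. The deposited peak lists held −log10 q-values and were used only to ask whether a site overlapped a peak in each library. Per the submitters' processing notes, the tools included Trim Galore 0.4.3, BWA 0.7.17, SAMtools 1.9, deepTools 3.0.1, MACS2, bedtools 2.26 and DESeq on build hg38, and their settings are not given in the sources used here. Gene ends, strands and promoter windows came from RefSeq tables. Starts in the deposited table were read as 0-based, since 20.6% of them equal a peak start, and are given here 1-based.

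Sites were filtered by expression with a minimum count of 10 and fitted together with edgeR 4.0.16 (R 4.3.3, limma 3.58.1), using the quasi-likelihood test on the counts of all groups and Benjamini-Hochberg adjustment over 177759 sites at 0.05. The class scale reset library sizes so that the class median did not change. Each SE is the absolute log2 change divided by the square root of the F statistic of the quasi-likelihood test. The fitting code was tested on simulated data. Named genes were the 12 highest and 12 lowest at each time by the rule given with the ranking, the extremes of each list at 72 h and list members of high level, and other genes were named after their values were seen. The members and lists were chosen with earlier results of these data known. Alternatives covered scaling, filters, the peak and distance rules, DESeq2 1.42.0, a replicate block and leaving out each library. Results on some items are not reported here.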

Additional observations from a re-analysis of the deposited data

Results flagged for a closer look

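At 22 members the changes at 6 h and 72 h were called in opposite directions on the class scale, and the difference between the times, tested with edgeR's quasi-likelihood test, was called too. This was 0.203% of the members and 0.795% of all tested sites. Given here are 3 with large differences and RASGRP3, of the signalling list. The far end of KNCN held 16.0 and 12.1 class-scaled CPM at 0 h, 8.44 and 7.15 by 6 h, then 33.7 and 36.1 at 72 h, so that the 6 h and 72 h libraries lay on opposite sides of the 0 h libraries, and the log2 difference of 72 h against 6 h was 2.18. The far end of KLHL18, a substrate adaptor of a ubiquitin ligase, held 19.7 and 13.7, then 8.37 and 7.20, then 28.3 and 23.7 (difference 1.75). The start of NLRP6, an innate immune sensor, gave 1.64. The start of RASGRP3, a diacylglycerol-responsive activator of RAS, held 6.84 and 5.51 at 0 h, 3.45 and 3.77 by 6 h, then 9.26 and 11.8 at 72 h (difference 1.53). Of the 22, 20 were called lower at 6 h and higher at 72 h, and 2 the reverse.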

How the results depend on the processing

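The 48 results on single named genes kept their direction and their side of the threshold in all 617 alternative values computed for them. These were the ranked extremes, chosen for large changes, and the alternatives used the same counts, so this stability follows largely from the choice. Counts of called members moved more. When a peak had to cover most of the site (a share of at least 0.5), 986 members were called at 6 h, 2211 at 72 h and 1251 between the treated times. With adjusted p under 0.01 and an absolute log2 change above 1, these counts were 370, 745 and 299. Leaving out each library in turn gave 1099 to 1421, 2387 to 3580 and 1154 to 2438, and offsets set by level within the class gave 1391 between the treated times. The class median before rescaling was −0.57 at 6 h and −1.52 at 72 h with RLE scaling, −0.29 and −0.83 with total counts, and −0.20 and −0.32 with loess offsets over all sites, and leaving out each library gave −0.52 to −0.36 and −1.39 to −1.28. The split of members called higher and lower at 72 h was 133 to 10182 with RLE scaling, 426 to 8811 with total counts and 844 to 5099 with loess offsets. The cause of these differences was not tested.

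With the replicate number as a block, 2043 members were called at 6 h, 4133 at 72 h and 2699 between the times, and the class medians were −0.42 and −1.33. The labels give the replicate numbers no shared culture or day, and deviations of same-numbered libraries correlated at 0.21, 0.15 and 0.26 over sites. Level offsets for the gene lists were an alternative chosen after seeing the data, under which 12 of 22 lists had a median above 0 at 72 h against 8. With 2 libraries a group, an exact permutation test of 1 site cannot go below p = 0.333.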
